A study of Mus musculus with 144 samples.

Results

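The genes followed here encode enzymes that build triglycerides and enzymes that break them down, in mouse liver and brown adipose tissue (BAT). They were chosen by gene symbol, with earlier results of these data known. The synthesis genes are Gpam, Agpat2, Dgat1, Dgat2 and Mogat1, and the breakdown genes are Pnpla2, Lipe and Mgll. All 8 symbols were found among the 21869 genes of the deposited count tables. The animals were wild-type male C57BL/6J mice aged 6 months, housed singly with a running wheel and fed a purified pellet diet through automated feeders. The study asked how the hour and the amount of feeding bear on daily gene expression. Tissues were taken every 4 h over 12 time points. The submitters' design text places this sampling in constant darkness, while the label of each library gives a cycle of 12 h light and 12 h dark, and times are given here as circadian time (CT) in hours. An entry age of 8 weeks and the 10 weeks of feeding named in the file headers add up to less than the labelled 6 months. Liver came from 5 regimens with 24 libraries each, made of 12 time points and replicate letters A and B, which the submitters call biological replicates. BAT came from 2 regimens with 1 library per time point.

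In ad libitum mice (AL) food was available for 24 h a day. Time-restricted mice could eat without limit during 6 h that began with the light hours (TR-day) or with the dark hours (TR-night). Calorically restricted mice were given 70% of baseline intake in those same windows (CR-day and CR-night). Strain, sex, genotype, age, diet and housing were shared by all groups. Hours after food below are counted from CT 0 for the day regimens and from CT 12 for the night regimens. A single BAT library per time point means that the spread in BAT comes from neighbouring times and from the 2 days, and the BAT letter and the BAT regimen cannot be told apart, since AL was letter A and CR-day letter B. The labels do not say whether letters were prepared in separate batches, so p-values measure the spread between these libraries.

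Triglycerides store fatty acids on a glycerol backbone. In the glycerol phosphate pathway a first acyl chain is added by glycerol-3-phosphate acyltransferases such as Gpam, a second by acylglycerol phosphate acyltransferases such as Agpat2, and the last by Dgat1 or Dgat2, while Mogat1 enters the route from monoacylglycerol. Breakdown runs the other way, with Pnpla2 (adipose triglyceride lipase) removing the first chain, Lipe (hormone-sensitive lipase) acting mainly on diacylglycerol and Mgll (monoacylglycerol lipase) releasing glycerol. Liver makes triglycerides for export and short storage after meals, whereas brown fat burns the fatty acids that lipolysis releases.

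Liver libraries held 5830040 to 26649153 counted reads, with a median of 10704775, and BAT libraries 6978002 to 11607273, with a median of 9351383. Mitochondrial transcripts took 25.9% of reads in liver and 61.4% in BAT. In liver, letter B of AL (13.3%) and letter A of CR-day (13.7%) had the lowest mitochondrial shares, against 22.8% to 32.1% in the other sets, and these 2 sets stood apart from the rest. In AL, letters A and B had means of 9.72 and 19.8 RPKM (reads scaled to gene length and depth) for Pnpla2 and of 0.97 and 2.15 for Lipe. Values without these 2 sets are given beside the main liver results. Hepatocyte markers summed to medians of 86900 to 107000 CPM, the usual depth-scaled count unit, in the liver regimens, and in BAT 6 of those 8 markers had a median of 0. Of 8 adipocyte markers, 5 (Adipoq, Plin1, Lep, Retn and Cfd) had a median of 0 in each liver regimen, while the whole list summed to medians of 2080 to 3780 CPM there, with single libraries up to 11900. Of 8 brown adipocyte markers, 3 (Ucp1, Dio2 and Cox8b) were at a median of 0 under AL and 4 in each other regimen, with Cidea the other one, and the list summed to medians of 897 to 1110 CPM.

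Promoter sequences were read from RefSeq on build GRCm38.p6 as 250 bases before to 50 after a start site, 5′ to 3′. In all, 6 of the 8 genes matched, with 9 promoters, and Dgat1 and Dgat2 were not matched. The following 3 are shown because their genes peaked at 3 different hours of the feeding cycle in liver. Capitals mark a match, on either strand, to 1 of 7 short motifs.
Mgll, chr6:88724162-88724461, plus strand: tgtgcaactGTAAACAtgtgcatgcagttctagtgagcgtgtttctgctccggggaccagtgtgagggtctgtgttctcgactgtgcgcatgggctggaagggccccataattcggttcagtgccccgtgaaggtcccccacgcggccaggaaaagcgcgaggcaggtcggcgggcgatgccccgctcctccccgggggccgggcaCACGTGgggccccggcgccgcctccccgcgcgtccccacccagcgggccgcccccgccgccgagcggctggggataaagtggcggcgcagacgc
Gpam, chr19:55099428-55099727, minus strand: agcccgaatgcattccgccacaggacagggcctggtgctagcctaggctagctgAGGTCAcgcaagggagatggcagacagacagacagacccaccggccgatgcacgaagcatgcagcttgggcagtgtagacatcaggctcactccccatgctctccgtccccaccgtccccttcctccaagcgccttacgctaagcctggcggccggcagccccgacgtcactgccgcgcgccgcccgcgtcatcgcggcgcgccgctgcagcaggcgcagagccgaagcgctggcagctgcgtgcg
Pnpla2, chr7:141454938-141455237, plus strand: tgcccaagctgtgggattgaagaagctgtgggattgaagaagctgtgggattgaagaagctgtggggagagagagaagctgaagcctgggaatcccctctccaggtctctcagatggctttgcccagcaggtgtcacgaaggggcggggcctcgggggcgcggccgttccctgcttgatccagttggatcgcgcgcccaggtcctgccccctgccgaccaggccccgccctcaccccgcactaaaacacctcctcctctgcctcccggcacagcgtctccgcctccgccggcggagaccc
In the Mgll promoter, the capitals are a forkhead site (TGTTTAC, read on the other strand) 241 bases before the start and an E-box (CACGTG) 44 bases before it. In the Gpam promoter, which lies at the 5′ end of the gene as the deposited tables annotate it, the capitals are a nuclear receptor element (AGGTCA) at position -196. The Pnpla2 window held none of the 7 motifs. Among 32851 promoters of the same length, 7.15% held the E-box, 3.65% the forkhead site and 16.3% the nuclear receptor element. The other motifs searched on both strands were the NF-Y box (CCAAT, 37.4%), the SREBP site (TCACNCCAC, 1.24%), the D-box (TTATGNAA, 3.38%) and the C/EBP site (TTGCNNAA, 10.8%). The second Gpam start held an NF-Y box and a C/EBP site, the Lipe promoter at chr7:25395938-25396237 held an E-box at position -155, and Agpat2 held none. These are matches of letters only and no binding was measured.

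On build mm10, Gpam lies on chromosome 19 from 55067268 to 55127238 (minus strand), Agpat2 on chromosome 2 from 26593057 to 26604417 (minus) and Dgat1 on chromosome 15 from 76502015 to 76511953 (minus). Dgat2 lies on chromosome 7 from 99153658 to 99182719 (minus) and Mogat1 on chromosome 1 from 78510991 to 78538173 (plus). The breakdown genes Pnpla2 (141455198 to 141460743, plus) and Lipe (25379527 to 25398710, minus) are also on chromosome 7, and Mgll is on chromosome 6 from 88724412 to 88828360 (plus).

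Under ad libitum feeding the breakdown genes Pnpla2 and Lipe were far more abundant in BAT than in liver. Mgll and the synthesis genes other than Gpam were also higher in BAT on average, Dgat2 by the least, and Gpam was lower. Levels are given per gene length as the authors' RPKM (reads adjusted for gene length and for depth), whose liver and BAT tables were normalized separately, as mean ± SD over 24 liver and 12 BAT libraries. In liver the synthesis genes led, with Dgat2 at 95.5 ± 39.3 RPKM, Gpam at 65.9 ± 36.0 and Agpat2 at 60.3 ± 24.3. These 3 neighbours differed by less than 1 SD. Mgll followed at 27.9 ± 11.2 RPKM and Pnpla2 at 14.7 ± 8.09, and Dgat1 (2.86 ± 1.13) and Lipe (1.56 ± 0.71) came last. The libraries of each neighbouring pair in this order overlapped.

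In BAT the order was led by Pnpla2 at 318 ± 67.2 RPKM, followed by Agpat2 at 206 ± 58.0 and Dgat2 at 108 ± 19.5. Mgll (60.2 ± 8.21) and Lipe (48.1 ± 11.1) came next, Gpam (13.7 ± 6.28) and Dgat1 (13.6 ± 3.78) did not differ beyond their spread, and Mogat1 was lowest at 3.15 ± 0.712 RPKM. Mogat1 was close to the detection limit in liver, where its count ranged from 0 to 18. Libraries at 0 numbered 5 for AL, 1 for CR-day, 4 for CR-night, 2 for TR-day and 8 for TR-night, of 24 each, with medians of 0.135 to 0.475 CPM. Mogat1 did not pass the filter on low counts within liver. In tissue samples, fewer cells of a type and less RNA per cell cannot be told apart.

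In a fit of both tissues, all 8 genes differed between BAT and liver under AL, against 79.7% of all 12969 genes tested (36.5% higher and 43.1% lower in BAT), so the count itself says little and the sizes carry the difference. The list median was 2.53 log2 units higher in BAT, and that of all genes -0.11. Lipe was 5.47 ± 0.22 log2 units higher in BAT (fit ± SE, edgeR quasi-likelihood test, Benjamini-Hochberg adjusted p = 2.68e-50). Pnpla2 was higher by 5.01 ± 0.18 (edgeR quasi-likelihood test, Benjamini-Hochberg adjusted p = 5.11e-55) and Mogat1 by 4.54 ± 0.29. Dgat1 (2.75 ± 0.17), Agpat2 (2.31 ± 0.17), Mgll (1.65 ± 0.13) and Dgat2 (0.70 ± 0.17) were higher by less. In RPKM the Dgat2 libraries of the tissues overlapped. Its AL liver means were 64.2 for letter A and 127 for letter B, against 108 in AL BAT. Gpam was the only one of the 8 lower in BAT, at -1.84 ± 0.32 log2 units (edgeR quasi-likelihood test, Benjamini-Hochberg adjusted p = 1.28e-07). Without AL letter B and CR-day letter A, 8 of 8 were again called, against 78.8% of all genes.

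**Figure D1:**
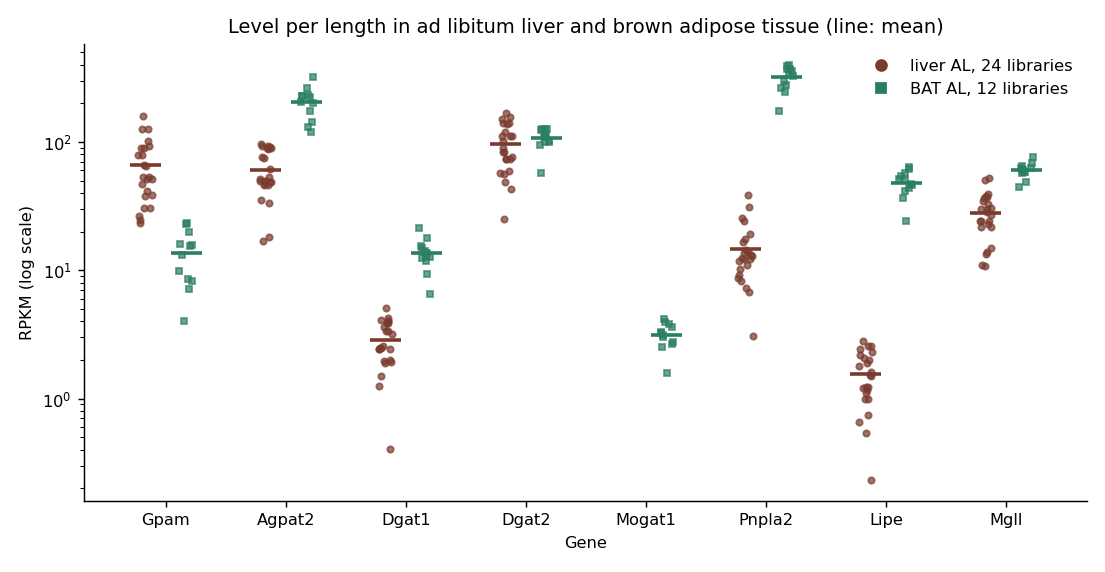
Levels of the 8 genes under ad libitum feeding, as the authors' RPKM on a log axis, with 1 point per library in liver (24, for 7 genes) and BAT (12, for all 8) and a line at the mean. Mogat1 has BAT points only, since the liver RPKM table does not list it. Pnpla2 and Lipe stand highest above their liver values (318 against 14.7 and 48.1 against 1.56 RPKM on average), and Gpam stands below (13.7 against 65.9).

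In liver, the question was whether synthesis and breakdown genes kept time with feeding. Gpam, which adds the first acyl chain, ranged between 97.1 and 555 CPM under AL feeding (median 192). The CR-day range was 31.0 to 984 (median 168) and the CR-night range 59.6 to 478 (median 156). In TR-day it ranged from 21.0 to 538 (median 137) and in TR-night from 36.8 to 486 (median 158). The groups overlapped over the whole day, and the separation lay in the hours.

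In CR-night liver, the 4 Gpam libraries at CT 12, when food began, had 59.6 to 85.8 CPM and the 4 at CT 20 had 364 to 478. In TR-night the same hours gave 46.5 to 60.4 and 279 to 486 CPM. Under day feeding the order of the hours was turned round. CR-day Gpam stood at 31.0 to 155 CPM at CT 0 and 347 to 621 at CT 4, and TR-day at 21.0 to 69.9 at CT 0 and 319 to 451 at CT 8. In each restricted regimen the libraries at the start of feeding did not overlap with those 4 to 8 h later that are named here. At CT 8, however, the CR-day libraries had 114 to 984 CPM and overlapped with those at CT 0. In AL the hourly means ran only from 134 CPM at CT 12 to 343 at CT 20.

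Fitted to a 24 h wave, Gpam peaked 7.44 ± 1.0 h after food onset in CR-day, 7.64 ± 0.983 h in CR-night and 8.39 ± 0.892 h in TR-night (fit ± SE, n = 24 libraries each), with peak to trough folds of 3.97, 4.08 and 4.71. The rhythm passed the test in CR-day (edgeR quasi-likelihood test, Benjamini-Hochberg adjusted p = 0.00284), CR-night (0.00482) and TR-night (0.00174). It did not in AL (0.57), nor in TR-day (0.0554), where the fitted peak was at 7.96 ± 0.897 h. In TR-day the letter A library at 44 h had 538 CPM while the other 3 at that hour had 52.8 to 85.4. Without that library and letter A at 0 h, the TR-day Gpam rhythm had an edgeR quasi-likelihood, Benjamini-Hochberg adjusted p of 0.000107. The library at 44 h stands out in Gpam itself, so the value without it is no separate support for the rhythm. In CR-day the call rests on both letters together, with adjusted p values of 0.063 for letter A alone, 0.112 for letter B alone and 0.189 without AL letter B and CR-day letter A (same edgeR test).

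Agpat2, which adds the second acyl chain, had hourly means of 28.0 CPM (CT 8) to 93.0 (CT 20) in CR-night and 27.9 (CT 8) to 81.3 (CT 20) in TR-night. At CT 8 the CR-night libraries had 20.8 to 41.2 CPM and at CT 20 73.2 to 116, without overlap. It peaked 8.09 ± 0.675 h after food in CR-night and 8.08 ± 0.834 h in TR-night (edgeR quasi-likelihood test, Benjamini-Hochberg adjusted p = 1.07e-05 and 0.000681), and 9.55 ± 1.09 h after food in CR-day (edgeR quasi-likelihood test, Benjamini-Hochberg adjusted p = 0.0199). The CR-day call ended without AL letter B and CR-day letter A (adjusted p = 0.0661, edgeR quasi-likelihood). In AL the fitted peak was at CT 20.4 ± 1.27 with an adjusted p of 0.0575 by the same edgeR test, and in TR-day the rhythm did not pass (0.256).

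Dgat2, the more abundant of the enzymes for the last step, passed the rhythm test in the 2 night regimens of the 5 in liver. Its hourly means in CR-night went from 107 CPM at CT 0 to 231 at CT 16, and in TR-night from 104 to 221 at the same hours. The TR-day means stayed between 137 and 155 CPM. Both night regimens peaked 3.48 h after food (SE 1.01 and 1.14 h, edgeR quasi-likelihood test, Benjamini-Hochberg adjusted p = 0.00835 in CR-night and 0.0163 in TR-night), and the TR-night call ended with letter A alone (0.0584). The other enzyme of the last step, Dgat1, was low in liver at medians of 3.0 to 8.32 CPM and did not pass the rhythm test in any of the 5 regimens, with edgeR quasi-likelihood, Benjamini-Hochberg adjusted p values of 0.221 to 1.

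Of the breakdown genes, Mgll, which releases glycerol from the last acyl chain, passed the rhythm test in each of the 5 liver regimens, the only one of the 7 tested genes to do so. In CR-night its hourly mean was 58.8 CPM at CT 4 (42.7 to 72.1) and 152 at CT 16 (138 to 164). In TR-night it was 56.7 at CT 0 (39.0 to 76.0) and 151 at CT 16 (137 to 165), so that high and low hours did not overlap. In AL it ran from 95.6 CPM at CT 4 to 184 at CT 20, and in CR-day the order was turned round, with 183 at CT 4 and 79.5 at CT 16.

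Mgll peaked within the feeding window of the restricted regimens. Counted from food onset, this was 3.94 ± 0.702 h for CR-night and 3.67 ± 0.596 h for TR-night, and 5.69 ± 0.777 h for CR-day and 5.73 ± 1.08 h for TR-day. In AL it peaked at CT 17.5 ± 0.955. The adjusted p values of the edgeR quasi-likelihood test (Benjamini-Hochberg) were 0.0093 for AL, then 0.000737 for CR-day and 1.95e-05 for CR-night, and 0.0172 for TR-day and 9.28e-07 for TR-night. The TR-day call ended with letter A alone (0.0945) and the AL call with letter B alone (0.338).

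Pnpla2, which removes the first acyl chain, had its highest hourly mean in each liver regimen at the hour of the lowest Gpam mean. The fitted peaks were not fully opposite under night feeding. They lay at CT 19.6 for Gpam and 11.2 for Pnpla2 in CR-night, and at 20.4 and 10.7 in TR-night. In TR-night its hourly means went from 9.58 CPM at CT 20 (6.56 to 12.3) to 35.9 at CT 12 (23 to 53.2), without overlap. In CR-night they went from 13.8 (9.4 to 16.9) to 32.0 (24.2 to 40.6) at the same hours, and in AL from 27.2 at CT 0 to 63.5 at CT 12. Under day feeding the high hours moved to CT 0, with 51.5 CPM in CR-day and 23.4 in TR-day, against low means of 25.0 and 10.5 at CT 8. In each of the 4 restricted regimens the highest hourly mean of Pnpla2 fell at the hour of food onset, and under day feeding the libraries of the high and low hours overlapped.

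Pnpla2 peaked 23.2 ± 1.14 h after the last food onset in CR-night, 22.7 ± 0.803 h in TR-night, 20.7 ± 1.33 h in CR-day and 19.9 ± 1.29 h in TR-day, and at CT 11.2 ± 1.14 in AL. By the edgeR quasi-likelihood test with Benjamini-Hochberg adjustment, the rhythm passed under night feeding (0.00799 for CR-night, 8.02e-05 for TR-night), with AL at 0.0179 and CR-day at 0.0479, and TR-day missed at 0.0536. Without AL letter B and CR-day letter A, the AL and CR-day calls ended (0.171 and 0.216) and TR-day passed (0.00688). Lipe, which acts on diacylglycerol, had 0.177 to 16.2 CPM in liver and passed in no regimen (adjusted p 0.074 to 0.767, same edgeR test).

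**Figure D2:**
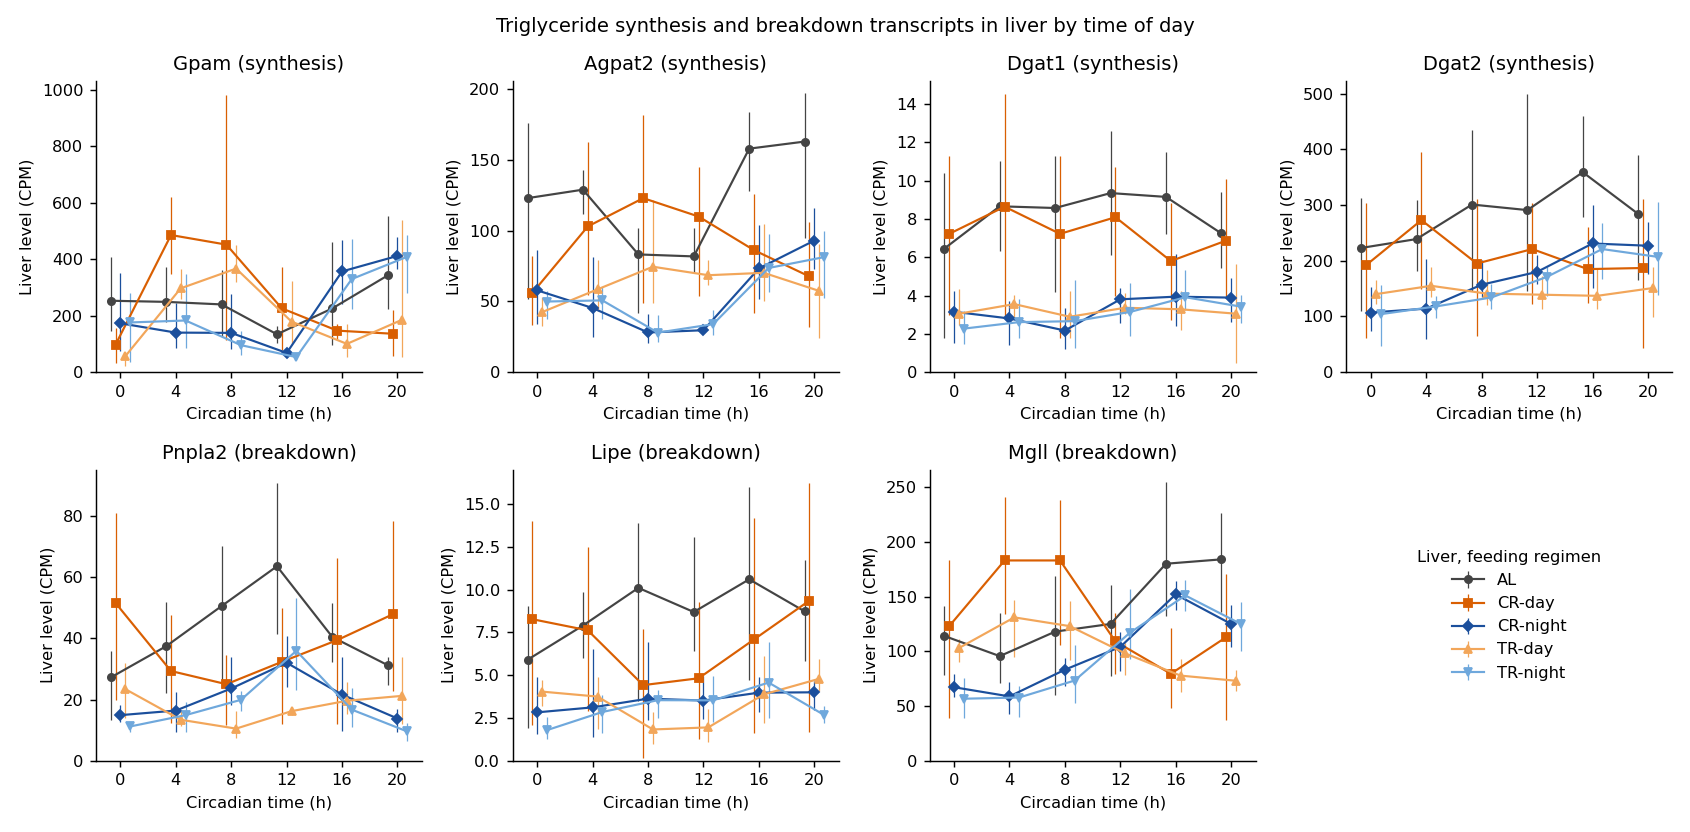
Liver levels of the genes by circadian time, as CPM, with 1 panel per gene except Mogat1 and 1 colour per regimen. Points are means of 4 libraries at an hour, moved slightly apart, and bars run from the lowest to the highest library. Gpam in CR-night goes from 67.8 CPM at CT 12 to 412 at CT 20 on average, and Pnpla2 from 32.0 to 13.8.

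Counted together, 2 of 7 tested genes were rhythmic in AL liver (Pnpla2 and Mgll), against 12.4% of all 11926 genes. In CR-day the count was 4 of 7 against 16.4%, and in CR-night 5 of 7 against 35.3%. In TR-day it was 1 of 7 against 15.4%, a share near the background, and in TR-night 5 of 7 against 26.4%. The TR-day count was 3 without the 2 TR-day libraries of letter A at 0 and 44 h. The one at 44 h stands out in Gpam itself, and the share of all genes called in that fit is not given here. The CR-day count was 1 of 7 (Mgll) without AL letter B and CR-day letter A, against 12.2% of all genes. In that fit the CR-night and TR-night counts were 5 of 7, against 43.5% and 33.3% of all genes.

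Whether the hour of feeding changed the rhythm was tested on the difference itself. CR-day against CR-night changed 5 of 7 genes, against 34% of all genes, and TR-day against TR-night 5 of 7, against 25.8%. Gpam changed in both contrasts (edgeR quasi-likelihood test, Benjamini-Hochberg adjusted p = 6.71e-06 under caloric and 5.9e-05 under time restriction), with peaks 11.8 ± 1.41 and 11.6 ± 1.27 h apart. Agpat2 changed as well (3.54e-07 and 0.00127 by the same edgeR test), with peaks 10.5 ± 1.28 h earlier by CT in CR-day than in CR-night if read within 12 h. Mgll had the smallest adjusted p of the 7 tested genes in both (1.81e-08 and 8.68e-08, edgeR) and Pnpla2 changed in both (0.000533 and 2.16e-05, edgeR). Dgat2 changed between the caloric regimens (edgeR quasi-likelihood test, Benjamini-Hochberg adjusted p = 0.0138) and Lipe between the time-restricted ones (0.0231). These counts were 5 and 6 without AL letter B and CR-day letter A, against 31.2% of all genes in each contrast.

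Against AL, CR-day changed the rhythm of 4 of 7 genes, against 21.9% of all genes, and TR-day of 3 of 7, against 16.3%. In CR-day these were Gpam, Agpat2, Pnpla2 and Mgll, with edgeR quasi-likelihood, Benjamini-Hochberg adjusted p values of 0.00758, 0.00047, 0.00059 and 2.58e-06. In TR-day they were Agpat2 (0.0201), Pnpla2 (0.00124) and Mgll (7.6e-05), while Gpam gave 0.0678 and, without the 2 TR-day libraries, 0.000378. That last value leaves out a library that stands out in Gpam itself and is no separate support. Without AL letter B and CR-day letter A, the counts fell to 2 of 7 in each, against 12.5% of all genes for CR-day and 14.3% for TR-day. Gpam (0.658) and Pnpla2 (0.0531) were lost in CR-day and Agpat2 (0.164) in TR-day, by the same edgeR test. The 4 contrasts with AL share the AL libraries.

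None of the 7 tested genes changed its rhythm past the threshold under night feeding. For CR-night and for TR-night against AL the edgeR quasi-likelihood test called 0 of 7 genes, against 0.0252% and 0.00839% of all genes, with 0 of 7 at an unadjusted p under 0.05 and 0 of 7 by DESeq2. The Pnpla2 peaks were -0.00258 ± 1.61 h (CR-night) and -0.487 ± 1.4 h (TR-night) from AL, and those of Mgll -1.55 ± 1.19 and -1.81 ± 1.13 h. A miss does not show that the rhythms were alike.

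**Figure D3:**
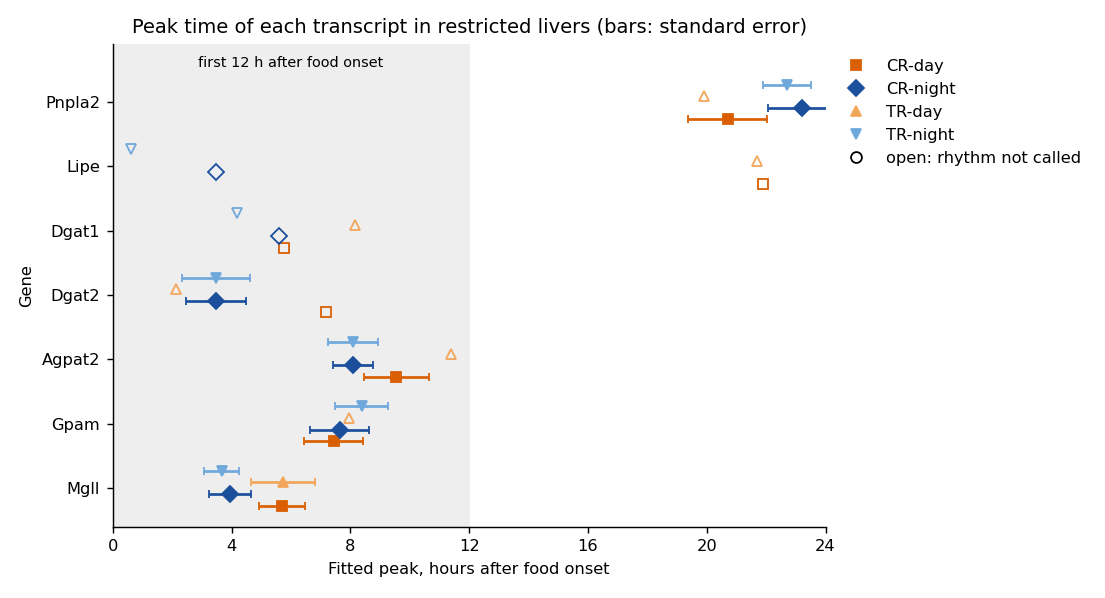
Fitted peak times of the liver genes, in hours after food onset for the 4 restricted regimens. Filled points passed the rhythm test and have bars of 1 SE, and open points did not pass. Gpam lies at 7.44 to 8.39 h and Agpat2 at 8.08 to 11.4 h, Mgll at 3.67 to 5.73 h and Pnpla2 at 19.9 to 23.2 h.

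Synthesis was set against breakdown within each library, as the mean log2(RPKM + 0.1) of Gpam, Agpat2, Dgat1 and Dgat2 minus that of Pnpla2, Lipe and Mgll. Mogat1 was left out because the liver RPKM table does not list it. Averaged over the day this balance of the 5 liver regimens was 1.89 ± 0.33 under AL (SD, n = 24 libraries per regimen). Under day feeding it was 1.82 ± 0.52 for CR and 1.88 ± 0.59 for TR, and under night feeding 1.84 ± 0.53 for CR and 1.91 ± 0.69 for TR. These means differed by less than 1 SD. A balance of 1.89 is a 3.7 times higher geometric mean for synthesis than for breakdown genes.

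The balance moved with the hour by more than it did between regimens. In TR-night it was lowest at CT 12, before food, at 0.63 to 1.34 in 4 libraries, and highest at CT 20 at 2.32 to 3.0. In CR-night the same hours gave means of 1.14 and 2.54. In CR-day it was lowest at CT 0 at 0.92 to 1.47 and stood between 1.82 and 2.51 at CT 8, and TR-day ran from a mean of 1.10 at CT 0 to 2.58 at CT 8. The libraries at food onset did not overlap with those 8 h later in any of the 4 restricted regimens. In AL the hourly means ran from 1.43 at CT 12 to 2.15 at CT 4.

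The 2 letters gave daily means of 1.92 and 1.85 for AL, of 1.73 and 1.90 for CR-day and of 1.77 and 2.05 for TR-night, so the sets that stood apart in level had balances within 1 SD of their partners. At CT 20 in TR-day the libraries spread from 0.81 to 2.69, the highest being letter A at 44 h. In BAT the balance was on the other side of 0, at -1.15 ± 0.30 in AL and -1.20 ± 0.24 in CR-day (SD, n = 12 libraries with RPKM). There the geometric mean of the synthesis genes was 0.45 and 0.434 times that of the breakdown genes. No test was made of the balance, since it sums over chosen genes.

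**Figure D4:**
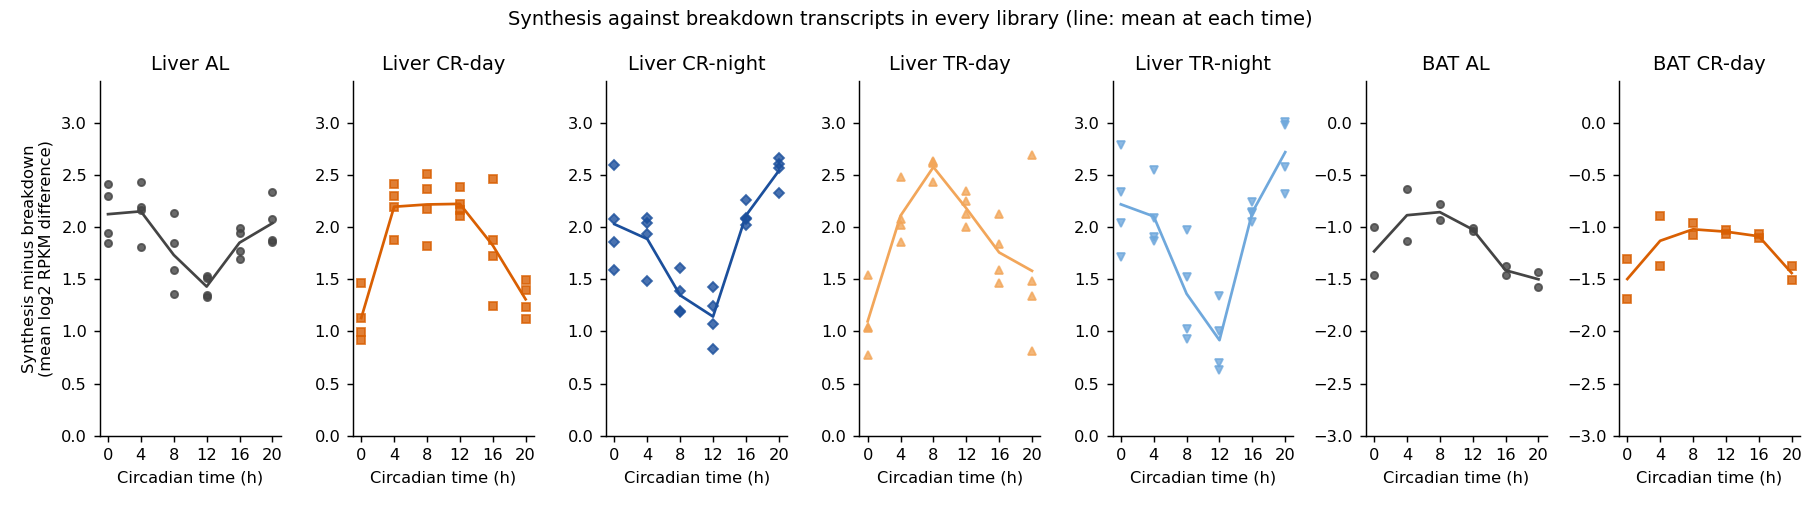
Balance of synthesis over breakdown genes by circadian time, as the mean log2(RPKM + 0.1) of 4 synthesis genes minus that of 3 breakdown genes, with 1 panel per regimen and tissue, 1 point per library and lines through hourly means. The liver and BAT panels have different axis ranges of equal length. All liver libraries lie above 0 and all BAT libraries below it, and the night regimens are lowest at CT 12 and highest at CT 20.

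Mean liver levels over the day were lower than AL for most of these genes in 3 regimens, but so were the levels of many other genes. In CR-night 6 of 7 genes were lower, against 79.2% of all genes called, 38.1% higher and 41.1% lower. TR-day likewise had 6 of 7 lower, against 80.4% of all genes called and 42.1% called lower. TR-night had 6 of 7 lower, against 80.7% called, 39.4% higher and 41.3% lower. The list medians were -1.04, -0.97 and -1.26 log2 units, against -0.02, -0.03 and -0.01 for all genes. Dgat1 had a mean of 8.24 ± 2.64 CPM in AL (1.77 to 12.6) and 3.29 ± 1.2 in CR-night (1.22 to 6.15), a difference of -1.33 ± 0.17 (edgeR quasi-likelihood test, Benjamini-Hochberg adjusted p = 2.01e-11). The groups overlapped at their edges. Agpat2 was -1.26 ± 0.15 (edgeR quasi-likelihood test, Benjamini-Hochberg adjusted p = 3.24e-12) and Mgll -0.51 ± 0.12 (6.39e-05) in the same contrast. There Dgat2 was at -0.78 ± 0.15, Pnpla2 at -1.04 ± 0.16 and Lipe at -1.29 ± 0.21 (adjusted p up to 2.56e-06, edgeR).

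In TR-day against AL, the synthesis genes Dgat1, Agpat2 and Dgat2 were at -1.35 ± 0.17, -0.97 ± 0.15 and -0.96 ± 0.15 log2 units. The breakdown genes Lipe, Pnpla2 and Mgll were at -1.42 ± 0.21, -1.25 ± 0.16 and -0.42 ± 0.12 (adjusted p of these 6 up to 0.000692, edgeR). In TR-night against AL the same 3 synthesis genes were at -1.47 ± 0.17, -1.26 ± 0.15 and -0.86 ± 0.15, and the 3 breakdown genes at -1.48 ± 0.21, -1.27 ± 0.16 and -0.56 ± 0.12 (adjusted p up to 1.25e-05, edgeR). Gpam was at -0.30 to -0.39 in these 3 contrasts and did not pass (adjusted p 0.145 to 0.266, edgeR).

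These level differences moved with the libraries and the correction used. Without AL letter B and CR-day letter A, the edgeR test called 5 of 7 genes in CR-night against AL, against 61.3% of all genes, 5 in TR-day, against 64%, and 6 in TR-night, against 64.8%. In that fit CR-night gave -1.02 for Agpat2, -0.93 for Dgat1 and -0.33 for Dgat2, and -0.63 for Pnpla2 and -0.76 for Lipe. Mgll was at -0.19 and -0.11 in CR-night and TR-day, not called, and at -0.25 in TR-night, and Gpam at 0.02, -0.04 and -0.07, not called. For TR-day the others were -0.72 (Agpat2), -0.94 (Dgat1), -0.51 (Dgat2), -0.84 (Pnpla2) and -0.88 (Lipe), and for TR-night -1.02, -1.07, -0.42, -0.87 and -0.95 in the same order.

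With offsets for GC content and gene length, CR-night against AL gave -0.29 for Agpat2, -0.46 for Dgat1 and -0.54 for Lipe. Pnpla2 was at -0.13 and no longer called (adjusted p = 0.214, edgeR). The sign turned for Dgat2 (0.07, adjusted p = 0.581) and Mgll (0.22, adjusted p = 0.0437 by the same edgeR test). The GC content of the genes was 55.3% to 58.0%, except Gpam at 48.6% and Mogat1 at 47.9%. With letter A alone, Mgll was at -0.10, -0.05 and -0.12 against AL in CR-night, TR-day and TR-night, and no longer called. With the sums of each regimen and letter as replicates, the edgeR test called 0 of 7 genes in every liver level contrast, and 0.187% or fewer of all genes. The labels hold no batch that could be tested. Summed macrophage markers, with 0 of 8 at a median of 0, had medians of 108 CPM under AL (38.7 to 175), 67.8 under CR-night (38.3 to 128), 64.4 under TR-day (30.2 to 139) and 56.2 under TR-night (31.1 to 116). Summed blood cell markers, with 0 of 6 at 0, had medians of 103 (68.3 to 191), 68.0 (42.4 to 137), 63.3 (43.3 to 88.7) and 71.4 (44.0 to 98.2). Adipocyte and stellate lists had higher medians in the restricted regimens than under AL. Summed adipocyte markers, with 5 of 8 at a median of 0, had medians of 2080 CPM under AL (806 to 5890), 2510 under CR-night (1440 to 7350), 3780 under TR-day (1160 to 7370) and 3760 under TR-night (1830 to 4890). The markers of that list with a median above 0 were Fabp4, Cidec and Car3. Adipoq, Plin1, Lep, Retn and Cfd stayed at a median of 0 in each regimen, so the sum does not show more adipocytes. Summed stellate cell and fibroblast markers, with 0 of 8 at a median of 0, had 244 (186 to 615), 313 (248 to 641), 311 (254 to 392) and 325 (260 to 724). The part of these 4 lists in the level differences was not tested.

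CR-day liver was lower than AL in 2 of 7 genes, against 19.6% of all genes called and 6.98% called lower. These were Agpat2 (-0.44 ± 0.15, edgeR quasi-likelihood test, Benjamini-Hochberg adjusted p = 0.0232) and Dgat2 (-0.43 ± 0.15, 0.0326). Both rest on the letters. With letter A alone Agpat2 was at 0.20 and Dgat2 at 0.49, and with letter B alone at -1.22 and -1.52. Without AL letter B and CR-day letter A, 6 of 7 genes were lower (Agpat2 -0.78, Lipe -1.01), against 47.3% of all genes called.

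CR-day stood above CR-night and above TR-day in 6 of 7 genes each, against 67.9% and 69.5% of all genes called and 37.8% and 38.5% called higher. In both contrasts the count was 0 of 7 with letter B alone and without AL letter B and CR-day letter A, by the same edgeR test. With letter B alone 2.23% and 0% of all genes were called, and without the 2 sets 4.84% and 1.35%. The larger differences came from CR-day letter A, where Dgat1 was 1.45 log2 units above CR-night. TR-day against TR-night and CR-night against TR-night called 0 of 7 genes by edgeR, against 3.42% and 0.503% of all genes (0.268% lower in the second), with 0 at an unadjusted p under 0.05 and 0 by DESeq2. In CR-night against TR-night the count was 4 of 7 with letter A alone. The share of all genes called in that fit is not given here, so this count has no background beside it.

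In BAT, Dgat2 and Mgll were lower in CR-day than in AL. Dgat2 had 283 to 517 CPM in AL (median 393, n = 12 libraries) and 209 to 428 in CR-day (median 292, n = 11), means of 405 ± 63.2 and 297 ± 59.4. The groups overlapped. Mgll had 327 to 427 CPM in AL (median 367) and 219 to 366 in CR-day (median 282), and 10 of 11 CR-day libraries lay below all AL libraries. The CR-day library at 0 h, which had RPKM only, went the other way for Mgll, at 67.5 RPKM against 48.7 in AL at 0 h. In RPKM the Mgll groups overlapped, at 44.8 to 75.9 in AL and 38.4 to 69.8 in CR-day. The difference was -0.44 ± 0.09 log2 units for Dgat2 (edgeR quasi-likelihood test, Benjamini-Hochberg adjusted p = 0.00584) and -0.41 ± 0.08 for Mgll (0.00192). That is 2 of 8 genes, against 5.85% of all 10966 genes called and 3.26% called lower.

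The other 6 genes had estimates between -0.17 (Dgat1) and -0.38 (Mogat1) and did not pass, and the list median was -0.33 against -0.00 for all genes. With day 2 alone 0 of 8 were called by edgeR, and the share of all genes called in that fit is not given here. Beside this, summed skeletal muscle markers had a median of 1550 CPM in AL BAT (3.09 to 2120) and 444 in CR-day (71.9 to 740), with 0 of 8 markers at 0. The summed brown adipocyte markers had medians of 4070 (2900 to 5280) and 3030 (2180 to 3670), and the summed adipocyte markers 9590 (7200 to 12400) and 9120 (7760 to 11900). Their part in the Dgat2 and Mgll differences was not tested.

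Rhythms in BAT were tested on 12 AL and 11 CR-day libraries. In AL BAT 2 of 8 genes were rhythmic, against 10.4% of all genes, namely Gpam (edgeR quasi-likelihood test, Benjamini-Hochberg adjusted p = 0.00742) and Pnpla2 (0.0394). Gpam had 24.5 and 41.5 CPM in its libraries at CT 0 and 68.6 and 106 at CT 4, and peaked at CT 8.83 ± 0.804 with a peak to trough fold of 2.74. Pnpla2 ranged from 841 to 1450 CPM and peaked at CT 16.3 ± 0.958, and its call ended in 6 of 9 alternatives, among them leaving out the 2 BAT libraries farthest from the rest (adjusted p = 0.0678, edgeR), GC and length offsets (0.106) and day 2 alone (0.42). The other 6 genes did not pass, with Dgat1 at 0.217, Mogat1 at 0.476, Mgll at 0.547, Lipe at 0.775, Agpat2 at 0.854 and Dgat2 at 0.905 (adjusted p, edgeR).

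In CR-day BAT 3 of 8 were rhythmic, against 15.5%. Pnpla2 (edgeR quasi-likelihood test, Benjamini-Hochberg adjusted p = 0.00342), Lipe (0.00547) and Dgat1 (0.0247) peaked close together, at CT 20.7 ± 0.749, 20.2 ± 1.02 and 20.9 ± 1.11. The Dgat1 call ended in 4 of 9 alternatives, with adjusted p values up to 0.0727 (edgeR), that of Pnpla2 on day 1 alone (0.183) and day 2 alone (0.0694), and that of Lipe on day 1 alone (0.0952). Lipe had 191 and 214 CPM at CT 8 and 451 and 538 at CT 20, without overlap. Gpam stood at 30.1 and 41.1 CPM at CT 8, and at 46.5 and 84.1 at CT 16, with a fitted peak at CT 19.3 ± 1.57 that missed the threshold (adjusted p = 0.0868, edgeR). Dgat2 (0.0615), Agpat2 (0.193), Mogat1 (0.552) and Mgll (0.61) did not pass either by the same edgeR test.

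The rhythm differed between CR-day and AL BAT for 2 of 8 genes, against 12.4% of all genes. These were Gpam (edgeR quasi-likelihood test, Benjamini-Hochberg adjusted p = 0.00187), with peaks 10.5 ± 1.76 h apart, and Dgat1 (0.0134), with peaks 10.7 ± 2.02 h apart. The Pnpla2 peak was 4.48 ± 1.22 h later in CR-day, and the test of its rhythm change missed the threshold (0.0599, edgeR). DESeq2 called it (0.0141). Mgll, which passed in all 5 liver regimens, had a peak to trough fold of 1.16 in AL BAT and 1.15 in CR-day BAT.

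**Figure D5:**
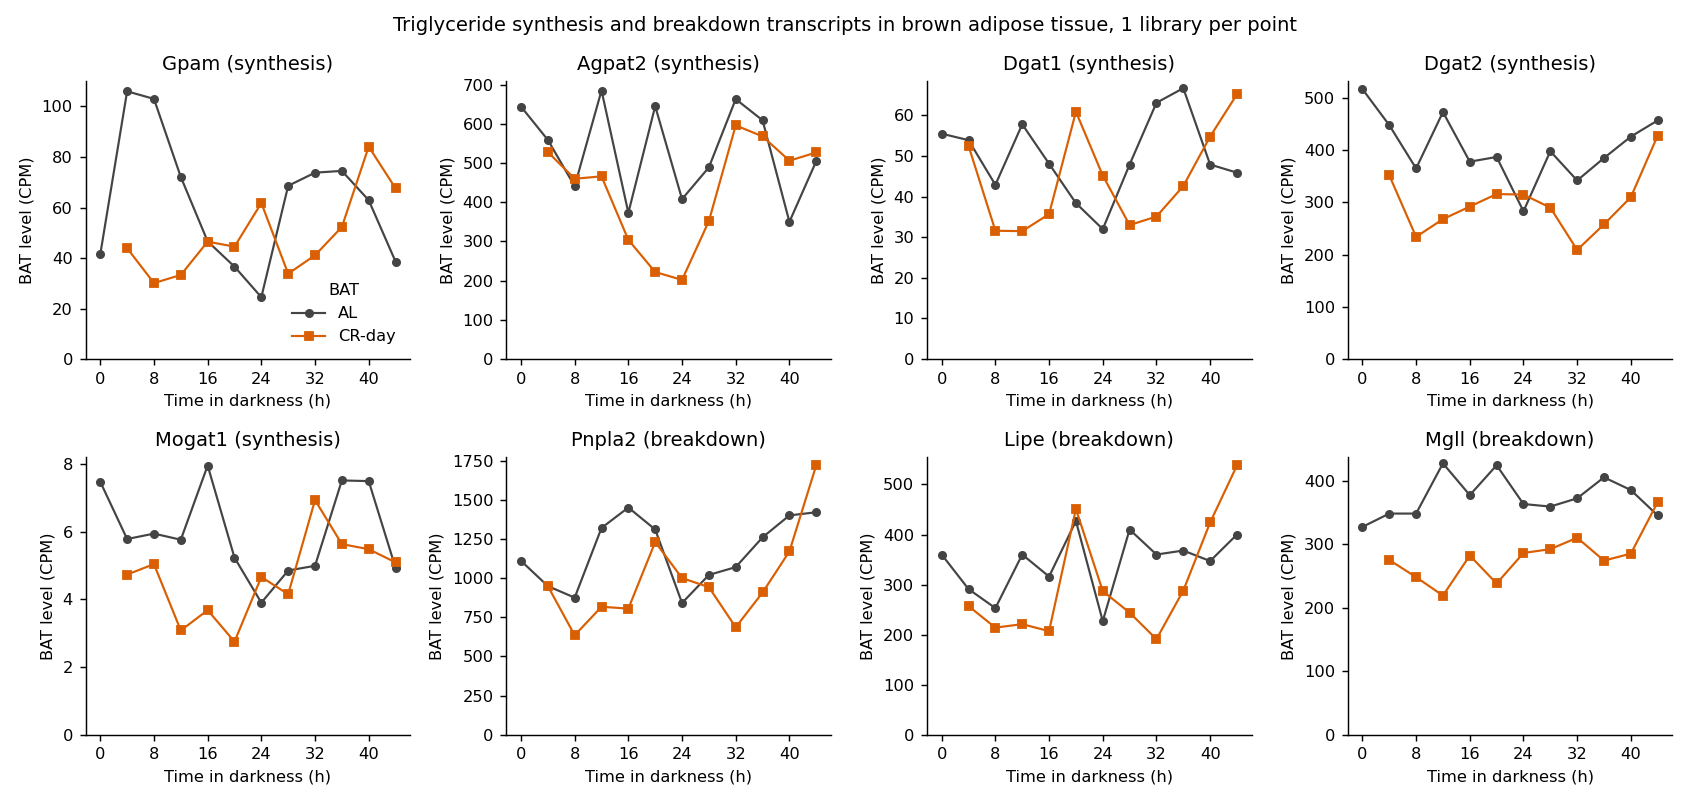
BAT levels of the 8 genes over 0 to 44 h of darkness, as CPM, for AL (12 libraries) and CR-day (11), with 1 point per library joined by lines. Gpam is highest at 4 h in AL (106 CPM) and at 40 h in CR-day (84.1), and Mgll in CR-day lies below AL at each shared time but 44 h. The CR-day library at 0 h had RPKM only and is not drawn.

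The response to CR-day was then compared between tissues by an interaction. For mean levels edgeR called 0 of 8 genes, against 2.98% of all 12969 genes, with 1 at an unadjusted p under 0.05 (Mogat1, -1.08 ± 0.42) and 0 by DESeq2. For rhythms it called 2 of 8, against 5.72%. The Gpam rhythm responded differently in the 2 tissues (edgeR quasi-likelihood test, Benjamini-Hochberg adjusted p = 0.011), and Mgll changed in liver with little rhythm in BAT (0.0441). The Gpam rhythm had not passed in AL liver or in CR-day BAT, so a move of its peak hour is not established in either tissue. Without AL letter B and CR-day letter A, the Gpam call ended (adjusted p = 0.289, edgeR).

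The wider pathway was described by 14 other synthesis genes and 13 other breakdown genes and partners. In liver 12 and 11 of them were tested. The rhythm passed in 4 and 6 of them under AL, 4 and 4 under CR-day, 6 and 7 under CR-night, 2 and 5 under TR-day and 6 and 8 under TR-night, beside the backgrounds given above. When AL letter B and CR-day letter A were left out, 11 and 11 were tested and the counts were 4 and 5 under AL (7.88% of all genes), 3 and 3 under CR-day (12.2%), 6 and 8 under CR-night (43.5%), 4 and 6 under TR-day (21%) and 6 and 9 under TR-night (33.3%). Lpin1, a phosphatidate phosphatase between the second and the last acylation, peaked at CT 12.4 to 13.5 in all 5 regimens, with edgeR quasi-likelihood, Benjamini-Hochberg adjusted p values of 1.17e-09 to 8.41e-06. Its paralogue Lpin2 peaked at CT 13.2 under AL, 11.6 under CR-night and 12.1 under TR-night and did not pass in the day regimens.

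Between CR-day and CR-night, 6 of 12 and 9 of 11 of these genes changed rhythm, against 34% of all genes, and between TR-day and TR-night 4 and 7, against 25.8%. Without the sets that stood apart these were 7 and 9 of 11, and 6 and 8, against 31.2% of all genes in each contrast. Abhd6, a monoacylglycerol lipase, peaked 5.61 and 5.55 h after food in the CR and TR day regimens and 3.29 and 3.4 h after food in the night regimens, hours near those of Mgll. Gpat4, a glycerol-3-phosphate acyltransferase of the endoplasmic reticulum, peaked at CT 13.7 under AL, 22.4 under CR-day and 13.6 under CR-night, while Gpam, which sits on the mitochondrial outer membrane, peaked at other hours. Pnpla3, a paralogue of Pnpla2, peaked 7.82 to 9.1 h after food in the restricted regimens, near Gpam and not near Pnpla2. The change of Abhd6 between CR-day and CR-night had an adjusted p of 6.52e-13, that of Gpat4 2.52e-09 and that of Pnpla3 3.46e-09 (edgeR quasi-likelihood, Benjamini-Hochberg).

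In BAT, 4 of 11 tested synthesis genes and 1 of 12 breakdown genes were lower in CR-day, against 3.26% of all genes called lower. Gk, glycerol kinase, was at -1.14 ± 0.26 (edgeR quasi-likelihood test, Benjamini-Hochberg adjusted p = 0.0162), Gpd1, which makes glycerol-3-phosphate, at -0.41 ± 0.11 (0.0259), and Agpat3 and Agpat1 at -0.31 ± 0.08 and -0.32 ± 0.09. Abhd6 was at -0.33 ± 0.09 (0.0322, edgeR). In CR-day BAT the glycerol channel Aqp7 peaked at CT 21.1 ± 0.52 and Gpat4 at CT 21.5 ± 0.857, near Pnpla2 and Lipe, whereas Gpat4 peaked at CT 9.5 ± 0.635 in AL BAT, near Gpam. The rhythm changed in 3 of 11 and 8 of 12 of these genes, against 12.4%.

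Between tissues in AL, 10 of 12 synthesis genes differed (7 higher in BAT) and 13 of 13 breakdown genes (11 higher), against 79.7%. Gpd1 was 3.84 ± 0.16 and Agpat1 3.01 ± 0.16 log2 units higher in BAT.

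Genes with the pattern most like each member were found over the 60 means of regimen and hour in liver, each centred on its regimen mean of log2 CPM. The means share libraries between genes and come from 120 libraries, so the values are descriptions. For Gpam they were Fasn (Pearson r = 0.92), Pnpla3 (0.91) and Sqle (0.90), and for Agpat2 they were Fpgs (0.93), Celsr1 (0.91) and Shroom1 (0.90). For Dgat1 they included Ndufv1 (0.82) and Gpt (0.81), and for Dgat2 Slc37a4 (0.90), F7 (0.88) and Shpk (0.85). For Pnpla2 they were Ldb1 (0.90), Map1lc3b (0.89) and Bcas3 (0.86), for Lipe Gna12 (0.87), Sidt2 (0.83) and Mlycd (0.80), and for Mgll they included Per2 (0.87) and Fgf1 (0.87).

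Among the members themselves, Gpam and Agpat2 had r = 0.73 over the same 60 liver means, Dgat2 and Mgll 0.74, and Gpam and Pnpla2 -0.70. Pnpla2 and Mgll, both breakdown enzymes, had r = -0.08. Over the 23 BAT libraries, centred on regimen means, Pnpla2 and Lipe had r = 0.85 and Dgat1 and Lipe 0.74, and Gpam and Pnpla2 0.23. In BAT the genes most like Pnpla2 were Pdk2 (0.92), Akr1a1 (0.92) and Sod3 (0.91), those most like Lipe Akr1a1 (0.92), Creld1 (0.90) and Wdr45 (0.89), and those most like Gpam Fam20b (0.87), Tmem248 (0.87) and Gpat4 (0.85).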

How the data were processed

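Polyadenylated RNA of 120 liver and 24 BAT libraries was sequenced. Per the submitters' processing notes, the authors' tools were STAR and featureCounts, with FastQC and cutadapt. Tool versions and genome build: not given in the sources used here. Per the file headers, the deposited counts are whole reads per gene and the deposited RPKM are reads scaled to length and depth. Multiplied by length, RPKM were proportional to counts (relative tolerance 1e-04) in all 120 liver and 23 BAT libraries with both. The BAT CR-day library at 0 h had RPKM only, and 1 further BAT count column, identical to a liver CR-day column, was not used, which left 143 of 144 count libraries.

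Tests used R 4.3.3, edgeR 4.0.16, limma 3.58.1 and, as an alternative, DESeq2 1.42.0. Genes passed filterByExpr by group (11926 in liver, 10966 in BAT, 12969 jointly), with TMM scaling. Every group had its own intercept and 24 h cosine and sine terms. Mean levels (intercepts), rhythms and rhythm changes (cosine and sine together) were tested by quasi-likelihood F tests in edgeR, Benjamini-Hochberg adjusted over all genes, at a threshold of 0.05. CPM use TMM-scaled totals. Peak times and amplitudes were fitted to log2 CPM (prior count 2) by least squares, with the residual spread pooled over a tissue's groups, and shifts are read within 12 h either way. Reads carry no molecular identifiers, and the tests take up the spread between libraries as well as counting error.

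The 8 members are described with values where results turn on them and otherwise by counts and ranges, with up to 4 genes of smallest p from each other list, and the 3 most alike genes, of which 2 are not reported here. Members, lists and tests were chosen with earlier results of these data known. The edgeR level test was checked on simulated counts for TR-day against TR-night in liver and for CR-day against AL in BAT. The rhythm test was checked in the same way for TR-night liver and CR-day BAT. Rhythm changes, contrasts between tissues and DESeq2 were not checked on simulated counts. The alternatives covered the tool, scaling, filters, GC and length offsets, single days, single letters, sums of libraries, left-out libraries, 12 h terms, the prior count and the pseudocount.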

Additional observations from a re-analysis of the deposited data

Results flagged for a closer look

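The rhythm response to CR-day differed between tissues for 2 of the 8 genes, by the interaction test of edgeR's quasi-likelihood fit with Benjamini-Hochberg adjustment. For Gpam the adjusted p was 0.011. In liver its fitted peaks were CT 23.5 under AL, where the rhythm did not pass, and CT 7.44 under CR-day. In BAT they were CT 8.83 under AL and CT 19.3 under CR-day, where it did not pass. For Mgll the adjusted p was 0.0441, with peaks at CT 17.5 and 5.69 in liver and peak to trough folds of 1.16 and 1.15 in BAT. With 1 day alone neither gene was called, and without AL letter B and CR-day letter A only Mgll was.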

How the results depend on the processing

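Of the counts of called genes, 275 stayed within 1.5 times under an alternative and 65 moved. Of the values of single genes, 2245 kept their direction and side of the threshold, 157 lost the call, 64 gained it and 31 reversed. The causes were not tested. Unless given above, the share of all genes called under an alternative is not given here. The counts below therefore have no background beside them and do not show a gain or loss particular to these genes. Leaving out AL letter B and CR-day letter A was chosen after seeing the data. Without a filter, times were shifted by under 0.001 h so that the model could be fitted.

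The level count for CR-day against AL (2) was 0 with GC and length offsets, on day 1, on day 2 and with sums of regimen and letter, 6 without AL letter B and CR-day letter A, and 5 to 7 with 1 letter. The 6 called in CR-night, TR-day and TR-night against AL became 0 with sums. CR-day against CR-night (6) gave 2 with GC offsets, 0 with sums, 0 without the sets that stood apart and 0 to 6 with 1 letter, and CR-day against TR-day (6) gave 0, 0 and 0 to 6 in the last 3. TR-day against TR-night (0) gave 1 without a filter (Mogat1), and CR-night against TR-night (0) gave 0 to 4 with 1 letter.

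Single days mostly lowered the rhythm counts. Day 1 and day 2 gave 0 and 0 in AL liver (2), 0 and 1 in CR-day (4), 3 and 2 in CR-night (5), 0 and 0 in TR-day (1), 2 and 2 in TR-night (5), 1 and 0 in AL BAT (2) and 0 and 1 in CR-day BAT (3). For rhythm changes they gave 1 and 2 for CR-day against AL (4), 3 on day 1 for CR-day against CR-night (5), 3 and 2 for TR-day against TR-night (5), 1 on day 1 in BAT (2) and 0 and 0 for the tissue rhythm response (2). On day 2 the BAT level count (2) was 0. Single letters gave 1 to 2 in AL, 2 in CR-day, 1 to 3 in TR-day and 3 to 5 for TR-day against TR-night.

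Without the sets that stood apart, the rhythm counts were 1 for AL, 1 for CR-day and 3 for TR-day, then 2 for the rhythm change of CR-day against AL, 1 for the tissue level response (0) and 1 for the tissue rhythm response. The TR-day rhythm count (1) was 4 by DESeq2, 5 with GC offsets, 4 without distant libraries, 3 without the 2 TR-day libraries, 3 with 12 h terms and 2 with the replicate block. The replicate block moved no other count by over 1.5 times. Letters share only a label, with residual correlations between regimens of -0.373 to 0.182 for the same letter (median 0.0338) and -0.136 to 0.481 for the other (median 0.0586). Both -0.373 and 0.481 were between AL and CR-day, where opposite letters were the more alike. A block with 1 letter term for all regimens cannot take up such a crossing. TR-day against AL (3) gave 5 with GC offsets. AL BAT gave 1 without a filter, 1 without distant libraries and 1 with 12 h terms, and the tissue rhythm response gave 1 without a filter and 1 with 12 h terms.

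Signs of log2 level differences turned in these cases. For CR-day against AL, letters A and B gave 0.20 and -1.22 for Agpat2, 0.73 and -1.32 for Dgat1, 0.49 and -1.52 for Dgat2, 0.80 and -1.32 for Pnpla2, 0.78 and -1.91 for Lipe, and 0.62 and -0.86 for Mgll. With GC offsets, Dgat2 and Mgll were 0.07 and 0.22 in CR-night and 0.09 and 0.28 in TR-night, and Agpat2 and Mgll 0.05 and 0.39 in TR-day, against AL. For CR-day against CR-night, GC offsets gave -0.30 for Dgat2 and -0.11 for Mgll, and letters B and A -0.25 and 0.68 for Dgat2, -0.05 and 1.38 for Lipe and -0.01 and 0.72 for Mgll. Without the sets that stood apart these 3 were -0.41, -0.25 and -0.11. For CR-day against TR-day, GC offsets gave -0.24 for Agpat2, -0.18 for Dgat2 and -0.28 for Mgll. Letters B and A gave -0.13 and 1.01 for Agpat2, -0.32 and 1.10 for Dgat2, -0.09 and 1.64 for Lipe and -0.14 and 0.68 for Mgll, and leaving out the sets that stood apart -0.06, -0.23, -0.13 and -0.19.

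With 1 library per time point in BAT and 2 sums per regimen in liver, small differences cannot be resolved. Low counts limit Mogat1, Dgat1 and Lipe in liver.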

Other observations

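Mogat1, which did not pass the filter on low counts within liver, had a mean of 0.286 ± 0.291 CPM under AL (SD, n = 24 libraries per regimen). Under day feeding the means were 0.461 ± 0.325 for CR and 0.563 ± 0.459 for TR, and under night feeding 0.174 ± 0.118 for CR and 0.175 ± 0.205 for TR. The 2 day regimens had the higher means, and their libraries overlapped with those of the others. In the fit without a filter, Mogat1 was 1.69 ± 0.38 log2 units higher in TR-day than in TR-night (edgeR quasi-likelihood test, Benjamini-Hochberg adjusted p = 0.00299), 1.44 ± 0.37 higher in CR-day than in CR-night (0.000564) and 0.99 ± 0.33 higher in TR-day than in AL (0.00693). Its other 5 level contrasts in liver gave adjusted p values of 0.0974 to 1 and its 5 rhythms 0.352 to 0.951 in that fit (edgeR). The counts behind these values were 0 to 18 per library.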
